A study of Mus musculus with 12 samples.

Results

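The genes described here are 38 genes of the endoplasmic reticulum (ER) folding machinery and of the unfolded protein response, taken by gene symbol from the 54532 genes listed in every library. All 38 were found, and all 38 passed the filter on low values (a mean of at least 1 FPKM over the 12 libraries), as did 11550 genes in all. They comprised 9 chaperones and co-chaperones, 2 lectin chaperones, 5 oxidoreductases, 4 genes of the stress sensors and their transcription factor Xbp1, 8 genes of ER-associated degradation and 10 genes of the translocon and the signal peptidase. The list was chosen by function, as a readout of whether a long-chain fatty acid evoked ER stress.

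Proteins that are secreted or inserted into membranes enter the ER through the translocon, lose their signal peptide and are folded by chaperones, lectins and disulfide-forming enzymes. When unfolded proteins accumulate, the sensors IRE1 (encoded by Ern1), ATF6 and PERK (encoded by Eif2ak3) are activated, and spliced XBP1, cleaved ATF6 and ATF4 raise the transcription of these genes. Proteins that fail to fold are returned to the cytosol and destroyed by ER-associated degradation. Activated CD8+ T cells secrete cytokines and cytotoxic granule proteins and so depend on this machinery, and an excess of saturated fatty acids is a known cause of ER stress in many cell types.

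The promoters of these genes are known for the ER stress element (ERSE), which ATF6 binds together with NF-Y, and for the shorter ERSE-II. The matches are shown as a description of the promoters. They do not mark every stress-induced member: Dnajb9 had no match to either element, and no promoter was found for Manf. In the RefSeq promoter table of GRCm38.p6, which covers 250 bases before to 50 after each start, 31 of the 38 members were found (Hyou1, Manf, Atf6, Derl1, Sec61a1, Ssr2 and Sec11c were not matched). The letters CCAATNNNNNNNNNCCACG, searched on both strands, were in the promoters of 8 of the 31 members (25.8%) and in 0.119% of all 32851 promoters. The matches are printed below with 5 flanking bases on each side, 5′ to 3′ on the strand of the gene. The capitals mark the fixed letters of the motif, which read CGTGG and ATTGG where the match is on the opposite strand.
Hspa5, chr2:34772020-34772048, + strand: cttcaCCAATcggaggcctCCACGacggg
Hsp90b1, chr10:86705633-86705661, − strand: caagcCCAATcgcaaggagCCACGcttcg
Hsp90b1, chr10:86705528-86705556, − strand: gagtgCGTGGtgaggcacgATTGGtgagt
Calr, chr8:84847070-84847098, − strand: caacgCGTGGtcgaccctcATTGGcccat
Canx, chr11:50325795-50325823, − strand: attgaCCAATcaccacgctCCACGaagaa
Creld2, chr15:88819515-88819543, + strand: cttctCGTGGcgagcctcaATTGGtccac
Dnajc3, chr14:118937822-118937850, + strand: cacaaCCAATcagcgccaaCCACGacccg
Pdia6, chr12:17266486-17266514, + strand: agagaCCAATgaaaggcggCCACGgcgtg
Syvn1, chr19:6046527-6046555, + strand: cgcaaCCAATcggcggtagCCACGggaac

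The ERSE-II letters ATTGGNCCACG were in 2 of the 31 members and in 0.0365% of all promoters, with the capitals again marking the fixed letters. The Herpud1 match lay before the start of the gene and the Dnajb11 match just after it.
Herpud1, chr8:94386372-94386392, + strand: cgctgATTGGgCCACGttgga
Dnajb11, chr16:22857847-22857867, + strand: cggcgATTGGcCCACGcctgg

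Either element was thus present in 10 of the 31 members (32.3%) and in 0.155% of all promoters. The XBP1 core TGACGTG was found in Hspa5 alone among the members (3.23%, against 2.01% of all promoters). The full cAMP response element TGACGTCA, the site that CREB binds, was in 0 of the 31 members (1.79% of all promoters), and its core TGACG, which is also part of the XBP1 core and of the full element, was in 10 of the 31 (32.3%, against 20.8%). The ATF4 site TGATGNAAT was in 0 of the 31 (0.965% of all promoters). A match describes these windows and is not evidence that a factor binds there.

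RNA was sequenced from wild-type mouse primary CD8+ T cells, isolated with magnetic beads from spleen and lymph nodes of C57BL/6 mice and activated through CD3 and CD28. The cells received a non-targeting siRNA (siNTC) or an siRNA against Creb1 (siCreb1) and were then kept for 24 h in the vehicle DMSO or with trans-vaccenic acid (TVA), a trans fatty acid of ruminant milk and meat fat, giving the groups siNTC, siNTC plus TVA, siCreb1 and siCreb1 plus TVA with 3 libraries each. TVA carries a double bond and is not one of the saturated fatty acids named above. The labels give no age, and they do not say whether libraries of a group came from separate mice or cultures, so the p-values measure the spread between these libraries, which may be technical. The study asked which effects of TVA require CREB, and the 38 genes are described here for TVA in siNTC cells, TVA in siCreb1 cells, siCreb1 against siNTC without and with TVA, and the difference between the TVA effects (the interaction).

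Creb1 lay between 10.3 and 12.4 FPKM in the 6 siNTC libraries and between 1.17 and 1.81 FPKM in the 6 siCreb1 libraries, so that 13.2% of its level was left (exact permutation test, two-sided, p = 0.00216). The deposited values correspond to 16660234 to 24602484 reads per library, and the 6 siCreb1 libraries (20760297 reads or more) were deeper than the 6 siNTC libraries (20758033 or fewer). A member had 190 to 11959 reads in a library. The 7 CD8 T cell markers were above 1 FPKM in every library, with a sum of 2273 to 2303 FPKM in the siNTC groups and 2156 to 2190 FPKM in the siCreb1 groups. The summed levels were 4.0 to 5.8 FPKM for 3 CD4 T cell markers, 9.5 to 14.2 FPKM for 5 B cell markers, 4.1 to 9.2 FPKM for 5 plasma cell markers (Tnfrsf17 was at 0), 8.0 to 12.4 FPKM for 6 myeloid markers and 31.6 to 35.5 FPKM for 3 NK cell markers. The sum of 12 cell-cycle genes moved with the groups: it was 331 to 338 FPKM in siNTC, 477 to 483 FPKM in siNTC plus TVA, 412 to 421 FPKM in siCreb1 and 429 to 436 FPKM in siCreb1 plus TVA libraries. The 3 NK cell markers were Ncr1, Klrb1c and Eomes, and their sum alone does not show that NK cells were present. In bulk RNA, fewer cells of a type and less RNA per cell cannot be told apart.

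The ER genes were expressed over a wide range. Means over the 12 libraries ran from the oxidoreductase Pdia3 (128 to 142 FPKM) and the lectin Calr (117 to 135 FPKM) down to the sensors Atf6 (1.85 to 2.46 FPKM) and Ern1 (1.17 to 1.90 FPKM), on a scale corrected for gene length. Next below Calr came P4hb, Sec61b, Edem1, Hsp90b1, Hspa5 and Canx, whose libraries lay between 57.7 and 88.8 FPKM and overlapped from each gene to the next in the order. The sensors and Xbp1 were near the bottom, with Xbp1 between 9.34 and 11.4 FPKM and Eif2ak3 between 7.73 and 9.64 FPKM. Gene-level FPKM does not separate spliced from unspliced Xbp1 mRNA, so it does not show IRE1 activity.

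**Figure D1:**
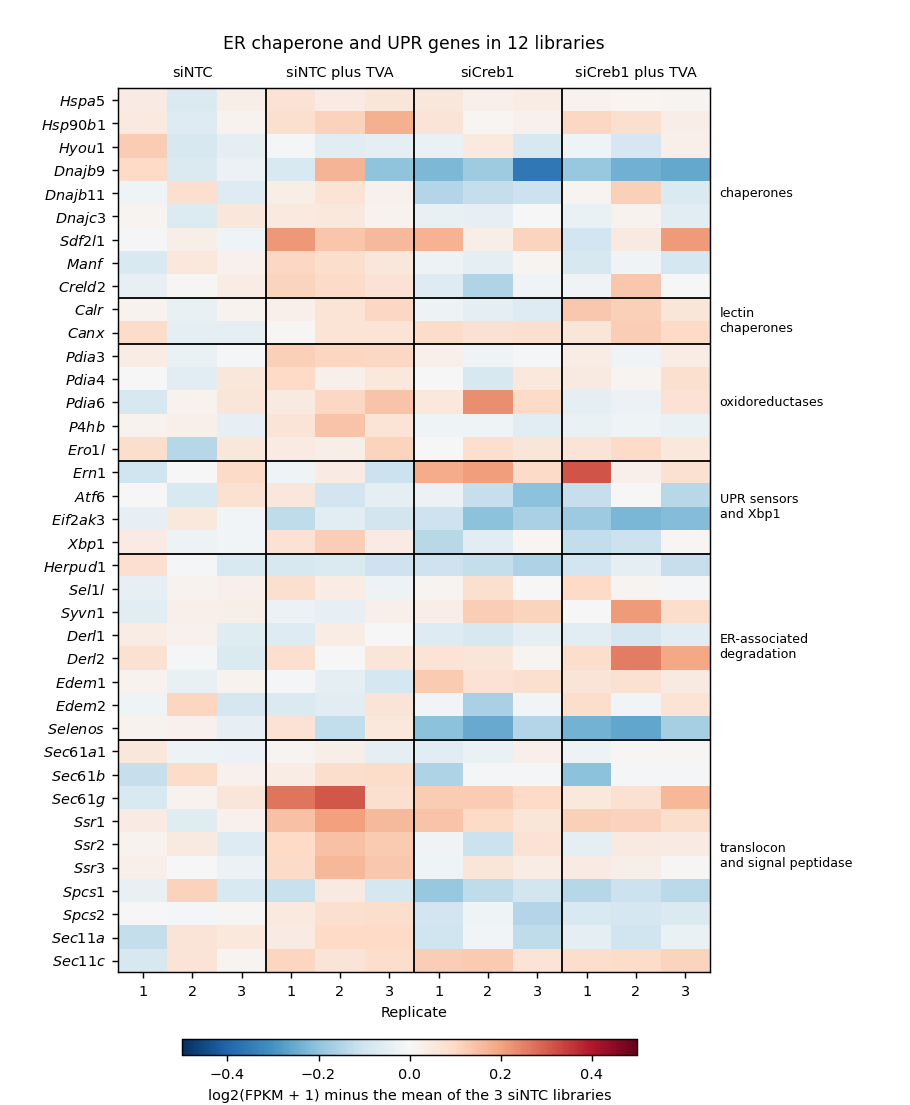
Heat map of the 38 genes (lines, by role) in the 12 libraries (columns), coloured by log2(FPKM + 1) minus the mean of the 3 siNTC libraries, on a scale from −0.5 to 0.5. Pale colours dominate because the largest ratio between 2 group means of a gene was 1.25, and the median over genes was 1.10.

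Differences between the groups were small. The ratio of the highest to the lowest group mean was at most 1.25 (Ern1, whose differences did not pass the test) and had a median of 1.10 over the 38 genes. Of the 38 genes, 10 passed the test in at least 1 of the 5 comparisons (Pdia3, P4hb, Manf, Eif2ak3, Selenos, Edem1, Sec61g, Ssr1, Ssr3 and Spcs2), and 28 passed it in none. That is 26.3% of the members, where 21.4% of all genes passed in at least 1 comparison. The test throughout was limma's moderated test on log2(FPKM + 1), with p-values adjusted by Benjamini-Hochberg over the 11550 genes and a threshold of 0.05. This scale understates the changes of genes of a few FPKM. For a single gene, permuting 3 libraries against 3 has a smallest two-sided exact p of 0.1, so no such test was run.

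Hspa5 encodes BiP, the main ER chaperone and the usual marker of ER stress. Its level was 68.9, 63.6 and 68.2 FPKM in the siNTC libraries, 70.3, 68.8 and 69.7 FPKM with TVA, 69.5, 68.0 and 68.6 FPKM in siCreb1 and 67.7, 67.3 and 67.5 FPKM in siCreb1 plus TVA. The groups overlapped except that the siCreb1 plus TVA libraries lay below those of the siCreb1 and the siNTC plus TVA groups. The log2 fold change of Hspa5 was 0.06 for TVA in siNTC cells (95% interval −0.01 to 0.12, adjusted p = 0.28), −0.02 for TVA in siCreb1 cells (−0.09 to 0.04, adjusted p = 0.86) and 0.04 and −0.04 for siCreb1 against siNTC without and with TVA.

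In siNTC cells treated with TVA, 4 of the 38 genes rose and 0 fell. All genes gave a share of 7.38% called (4.49% higher and 2.88% lower), against 4 of 38 here (10.5%). The 4 genes were Ssr1, Ssr3 and Sec61g of the translocon and the oxidoreductase Pdia3. The median log2 fold change of the 38 was 0.06 against −0.01 for all tested genes, with 25 of the 38 above 0 (65.8%, against 47.7% of all genes). No 95% interval of a member reached beyond −0.24 or 0.35. At an unadjusted p under 0.05 there were 11 higher and 2 lower members (10.5% of all genes were higher and 10.5% lower at that p), and limma-voom on the recovered reads called 6 higher (the 4, Hsp90b1 and P4hb) and 0 lower. The count of higher members was 0 without siNTC plus TVA replicate 2, 1 without siNTC replicate 3, and 2 without siNTC replicate 2 or without siNTC plus TVA replicate 1 or 3. The 3 libraries of the groups did not overlap in 12 genes that were higher with TVA (11.7% of all genes were) and in 1 that was lower (12.2% of all genes). The cell-cycle sum rose in the same comparison, all 12 of its genes passing the test with a median log2 fold change of 0.50, and its part in these differences was not tested. Of the marker sums, that of the NK cell markers was higher with TVA (34.4 to 35.5 FPKM against 31.6 to 34.2 FPKM), and those of the myeloid markers (8.0 to 8.2 FPKM against 8.8 to 9.5 FPKM) and of the CD8 markers (2273 to 2286 FPKM against 2295 to 2303 FPKM) were lower, none with overlap, and the part of each was not tested.

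Ssr1 (chr13:37966605-37994217) encodes a subunit of the translocon-associated protein complex TRAP, which helps some signal peptides into the Sec61 channel. It measured 11.9, 11.1 and 11.8 FPKM in siNTC libraries and 12.9, 13.5 and 13.1 FPKM with TVA. Every TVA library was above every siNTC library. It rose by 13.6%, or 0.17 on the log2 scale (95% interval 0.09 to 0.25, adjusted p = 0.0147). The call was lost without siNTC plus TVA replicate 2 (0.15, adjusted p = 0.0618), after rescaling to TPM and with only the 6 libraries in the fit.

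Ssr3 (chr3:65379655-65392623), another TRAP subunit, measured 48.1, 47.3 and 46.3 FPKM in siNTC libraries and 50.5, 53.1 and 51.9 FPKM with TVA. The groups did not overlap, and the log2 fold change was 0.13 (0.07 to 0.20, adjusted p = 0.0167). Without siNTC replicate 3, siNTC plus TVA replicate 2 or siNTC plus TVA replicate 3 the call was lost (adjusted p up to 0.0701, fold change 0.12 or more), as it was with only the 6 libraries in the fit. The remaining TRAP member Ssr2 had a log2 fold change of 0.13 (0.02 to 0.23, adjusted p = 0.14).

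Sec61g (chr11:16500530-16508484), the small gamma subunit of the Sec61 channel, had the largest fold change of the 4, but it also had the widest spread. Its level was 15.3, 16.4 and 17.0 FPKM in siNTC libraries and 19.8, 20.4 and 17.2 FPKM with TVA, so that siNTC plus TVA replicate 3 lay just above the siNTC range. The log2 fold change was 0.22 (0.09 to 0.35, adjusted p = 0.0495). It held in 1 of 12 fits that left out a library (without siNTC plus TVA replicate 3, log2 fold change 0.29, adjusted p = 0.00708) and was lost in the other 11, in which the adjusted p reached 0.16 and the fold change fell to 0.17. It was also lost when all genes above 0 were tested, without the mean-variance trend and with only the 6 libraries. The other channel subunits, Sec61a1 and Sec61b, had log2 fold changes of −0.00 (adjusted p = 0.98) and 0.07 (adjusted p = 0.58).

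Pdia3 (chr2:121413775-121438687) encodes ERp57, which forms disulfides in glycoproteins bound to calreticulin and calnexin and belongs to the MHC class I peptide-loading complex. It measured 134, 128 and 130 FPKM in siNTC libraries and 142, 141 and 140 FPKM with TVA, with no overlap. Its level rose by 7.91%, a log2 fold change of 0.11 (0.06 to 0.16, adjusted p = 0.0207). The call was lost without siNTC replicate 2, siNTC replicate 3 or any 1 of the siNTC plus TVA libraries (adjusted p up to 0.0707, fold change 0.09 or more), after rescaling to TPM, without the trend and with only the 6 libraries. The other 4 oxidoreductases, P4hb (the archetypal protein disulfide isomerase), Pdia4, Pdia6 and the oxidase Ero1l, had log2 fold changes of 0.06 to 0.10 and did not pass the test, P4hb being nearest (adjusted p = 0.0694, and 0.0482 with limma-voom).

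**Figure D2:**
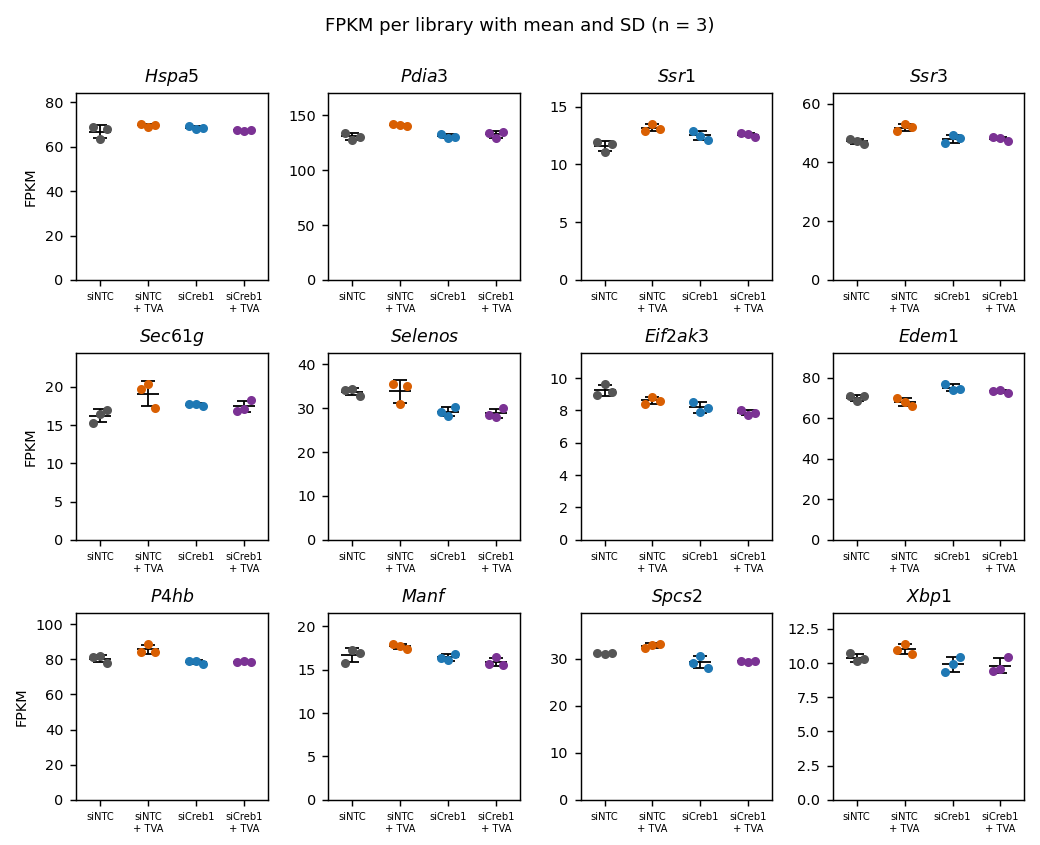
FPKM (y axis, from 0) of 12 genes in each library by group, with the mean and SD of 3 libraries as a bar. The steps between groups, such as that of Ssr1 from 11.6 to 13.2 FPKM with TVA and that of Selenos from 33.8 to 29.2 FPKM with siCreb1, are small beside the levels, and Hspa5 lies between 63.6 and 70.3 FPKM throughout.

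Among the 9 chaperones, 0 passed the test with TVA in siNTC cells, and 2 were higher at an unadjusted p under 0.05 (10.5% of all genes were). Hsp90b1, the ER paralogue of HSP90, was the nearest with a log2 fold change of 0.13 (0.05 to 0.20, adjusted p = 0.0624), and it passed with limma-voom on the reads (adjusted p = 0.0121), among genes with a mean of at least 5 FPKM and without siNTC replicate 1. Sdf2l1, a partner of the ER co-chaperone Dnajb11, had 0.17 (0.03 to 0.32, adjusted p = 0.17). The stress-induced secreted factors Manf and Creld2 had 0.08 and 0.09, the co-chaperones Dnajb11 and Dnajc3 had 0.04 each, and Hyou1, a nucleotide exchange factor for BiP, and the co-chaperone Dnajb9 had −0.04 each. The lectin chaperones Calr and Canx, which hold glycoproteins during folding, had 0.07 and 0.05.

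The 8 genes of ER-associated degradation had log2 fold changes between −0.08 and 0.05 with TVA in siNTC cells, 6 of them below 0, and 0 passed the test with limma or limma-voom (1 was lower at an unadjusted p under 0.05). Of all genes, 47.7% were above 0 and 10.5% were lower at that p. Herpud1, a membrane protein that organises the degradation complex and is among the strongly induced genes of ER stress, had −0.08 (−0.17 to −0.00, adjusted p = 0.24). The ligase Syvn1 and its adaptor Sel1l had −0.01 and 0.03, and the channel candidates Derl1 and Derl2 had −0.01 and 0.05. Of the signal peptidase genes, Spcs2 and Sec11c had 0.07 and 0.09, Sec11a had 0.08 and Spcs1 had −0.05, and none passed.

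**Figure D3:**
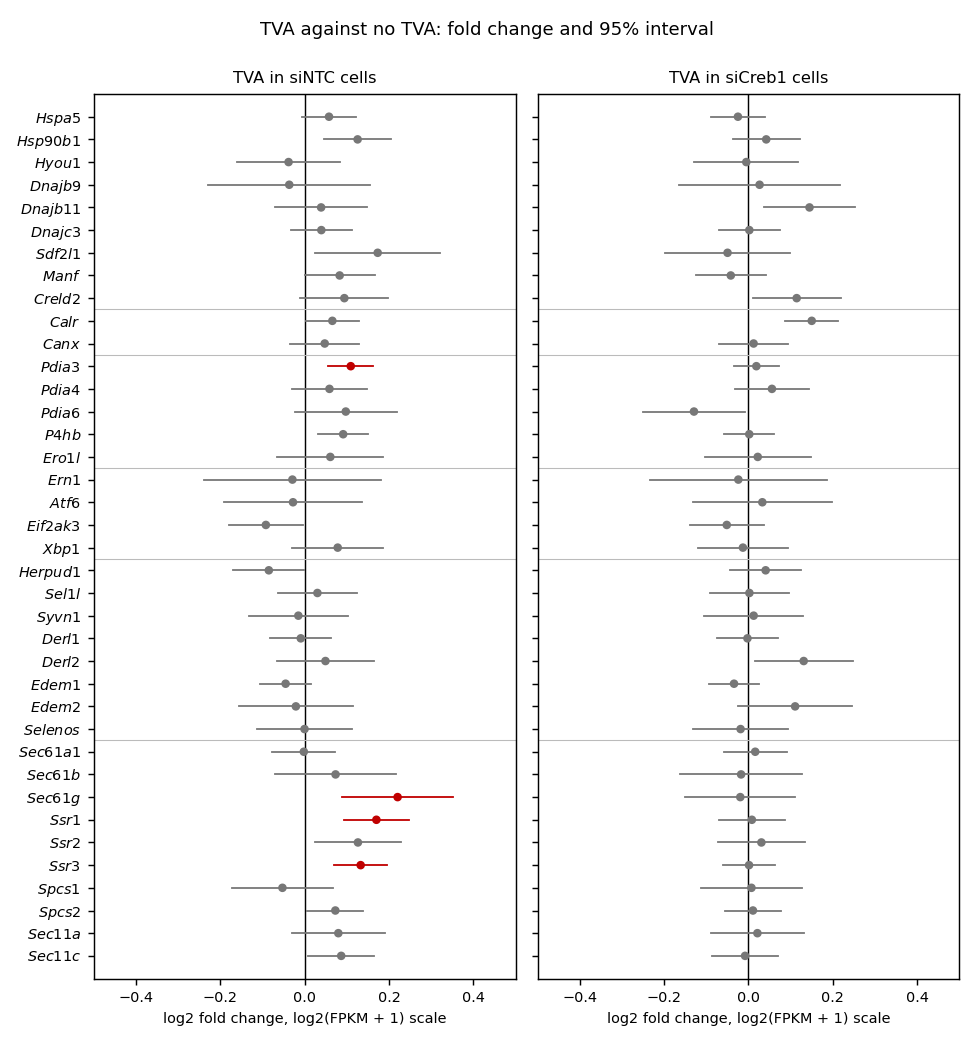
Log2 fold changes (x axis, log2(FPKM + 1) scale) of the 38 genes for TVA in siNTC cells (left) and in siCreb1 cells (right), with 95% intervals as lines and red marking an adjusted p under 0.05. Red marks 4 genes on the left (Pdia3, Sec61g, Ssr1 and Ssr3) and 0 on the right.

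With TVA in siCreb1 cells, 0 of the 38 genes passed the test with limma, where 0.537% of all genes did (0.121% higher and 0.416% lower). At an unadjusted p under 0.05, 4.19% of all genes were higher and 5.39% lower. Among the members, 4 were higher (Calr, Dnajb11, Creld2 and Derl2) and 1 was lower (Pdia6) at that p, and limma-voom on the reads called 1. That gene was Calr, at 121, 119 and 117 FPKM in siCreb1 and 135, 134 and 128 FPKM in siCreb1 plus TVA libraries, which do not overlap. Its log2 fold change was 0.15 (0.09 to 0.21, adjusted p = 0.0516), and it passed with limma-voom (adjusted p = 0.00163), with quantile normalization (0.0456), among genes with a mean of at least 5 FPKM (0.04) and without siNTC replicate 2 (0.0492). The median of the 38 was 0.01, the intervals reached from −0.25 to 0.25, and the groups did not overlap in 3 genes that were higher (8.09% of all genes) and 1 that was lower (9.01%). The genes that rose in siNTC cells had log2 fold changes of 0.01 (Ssr1), 0.00 (Ssr3), −0.02 (Sec61g) and 0.02 (Pdia3) in siCreb1 cells. Several marker sums were higher with TVA in the same comparison, without overlap: those of the myeloid (11.1 to 12.4 FPKM against 8.4 to 10.7 FPKM), B cell (11.8 to 12.8 FPKM against 10.2 to 11.4 FPKM), plasma cell (6.9 to 7.4 FPKM against 4.1 to 6.5 FPKM) and CD8 markers (2174 to 2190 FPKM against 2156 to 2173 FPKM). The cell-cycle sum was higher as well, and the part of each in the values of Calr and the other members was not tested.

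Whether TVA acted differently in siCreb1 and siNTC cells was tested by the interaction. With limma, 0 of the 38 genes passed, where 2.24% of all genes did (0.459% with a larger and 1.78% with a smaller TVA effect in siCreb1 cells), and limma-voom called 0. An unadjusted p under 0.05 was reached by 8 genes with a smaller TVA effect in siCreb1 cells and by 1 with a larger one (Herpud1, 0.13), where 8.2% of all genes had a smaller and 6.15% a larger effect at that p. The 8 included Ssr3 (−0.13, 95% interval −0.22 to −0.04, adjusted p = 0.14), Ssr1 (−0.16, −0.27 to −0.05, adjusted p = 0.14), Sec61g (−0.24, −0.42 to −0.05, adjusted p = 0.2) and Pdia3 (−0.09, −0.17 to −0.02, adjusted p = 0.24). Those 4 genes were called on the TVA effect in siNTC cells, which the interaction subtracts, so their negative values are not independent of those calls. Without siNTC plus TVA replicate 3, Sec61g passed (−0.31, adjusted p = 0.0456). The 4 calls with TVA in siNTC cells are therefore not shown to differ from siCreb1 cells. The cell-cycle genes also had a smaller TVA effect in siCreb1 cells (11 of 12 passed, median −0.44). Their part in the values of the members was not tested.

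Knockdown of Creb1 in cells without TVA was followed by a fall of 2 members, Eif2ak3 and Selenos, and a rise of 1, Edem1. That is 3 of 38 (7.89%), where 13.7% of all genes were called (6.52% higher, 7.21% lower). The median log2 fold change of the 38 was −0.02, but 0.00 with quantile normalization and 0.03 after rescaling to TPM, so it has no firm sign. The median of all tested genes was −0.001, −0.007 and 0.043 in the same order. TPM gave 1 member higher and 0 lower. Members lower were 0 without siNTC replicate 2, 1 without siNTC replicate 1 or any 1 siCreb1 library, and 3 without siNTC plus TVA replicate 2. The groups did not overlap in 4 genes that were higher and 7 that were lower with siCreb1 (15.5% and 16% of all genes). The cell-cycle sum was higher with siCreb1 (all 12 genes passed, median 0.31), the CD8 marker sum was lower and the siCreb1 libraries were deeper, and the part of each in the differences was not tested.

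Eif2ak3 (chr6:70844515-70905245) encodes PERK, the sensor kinase that lowers translation and favours ATF4 synthesis. It measured 8.94, 9.64 and 9.16 FPKM in siNTC libraries and 8.52, 7.88 and 8.14 FPKM in siCreb1 libraries, without overlap. Its log2 fold change was −0.16 (−0.25 to −0.07, adjusted p = 0.0246). The call was lost without siNTC replicate 2 or 3 or siCreb1 replicate 2 or 3 (adjusted p up to 0.0888, fold change −0.13 at the least), after rescaling to TPM and with only the 6 libraries. With TVA, the levels were 8.37, 8.86 and 8.61 FPKM in siNTC and 8.03, 7.73 and 7.81 FPKM in siCreb1 libraries, again without overlap, and the fold change of −0.12 did not pass (adjusted p = 0.0876).

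Selenos (chr7:66079649-66089405) encodes a selenoprotein that anchors the ATPase p97 at the ER membrane for degradation. It measured 34.2, 34.3 and 32.8 FPKM in siNTC, 35.5, 30.9 and 35.0 FPKM in siNTC plus TVA, 29.2, 28.2 and 30.4 FPKM in siCreb1 and 28.6, 28.0 and 30.0 FPKM in siCreb1 plus TVA libraries. All 6 siCreb1 libraries lay below all 6 siNTC libraries. The log2 fold change was −0.20 without TVA (−0.31 to −0.09, adjusted p = 0.025) and −0.22 with TVA (−0.33 to −0.11, adjusted p = 0.0229). Without TVA the call was lost without siNTC replicate 1 or 2 or siCreb1 replicate 1 or 2 (adjusted p up to 0.0872, −0.18 at the least), and with TVA without siNTC plus TVA replicate 1 or 3 or siCreb1 plus TVA replicate 1 or 2 (adjusted p up to 0.0794, −0.18 at the least). Both calls were lost after rescaling to TPM and when all genes above 0 were tested, and the second also with quantile normalization and with only the 6 libraries.

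Edem1 (chr6:108828641-108859356), a lectin-like protein that passes misfolded glycoproteins to degradation, went the other way. Its level was 71.1, 68.5 and 71.1 FPKM in siNTC, 69.9, 68.1 and 66.0 FPKM in siNTC plus TVA, 77.0, 73.9 and 74.3 FPKM in siCreb1 and 73.5, 74.1 and 72.4 FPKM in siCreb1 plus TVA libraries. The siCreb1 libraries were above all siNTC libraries in both settings. It rose by 0.10 on the log2 scale without TVA (0.04 to 0.16, adjusted p = 0.0412) and by 0.11 with TVA (0.05 to 0.17, adjusted p = 0.0337). The call without TVA held only without siNTC plus TVA replicate 1 or 3 and was lost in the 10 other fits that left out a library (adjusted p up to 0.14, 0.08 at the least). The call with TVA was lost without siNTC plus TVA replicate 2 or 3 or any 1 siCreb1 plus TVA library (adjusted p up to 0.11, 0.09 at the least), and both were lost when all genes above 0 were tested, without the trend and with only the 6 libraries. Its relative Edem2 had −0.06 and 0.07 and did not pass.

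Of the members that did not pass without TVA, the co-chaperone Dnajb9, which is induced through IRE1 and XBP1, had the largest difference of any member on the log2(FPKM + 1) scale. It measured 10.6, 9.31 and 9.63 FPKM in siNTC and 8.28, 8.58 and 7.45 FPKM in siCreb1 libraries, without overlap. The log2 fold change was −0.25 (−0.45 to −0.06, adjusted p = 0.0796), and it passed with limma-voom (−0.28, adjusted p = 0.0347) and without siNTC plus TVA replicate 2 (adjusted p = 0.0264). Herpud1 had −0.13 (−0.21 to −0.04, adjusted p = 0.0508) and passed among genes with a mean of at least 5 FPKM and without siNTC replicate 3 (−0.17, adjusted p = 0.0166).

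With TVA present, siCreb1 cells had lower levels of 6 members than siNTC cells and a higher level of 1. The 6 were Spcs2 and Ssr3 of the signal peptidase and translocon, the oxidoreductases P4hb and Pdia3, the chaperone partner Manf and Selenos, and the 1 was Edem1. All genes gave 10.1% called (5.51% lower, 4.64% higher), against 7 of 38 here (18.4%). The count rested on the settings: members lower were 0 and higher 1 after rescaling to TPM, 1 lower with quantile normalization, 2 lower among all genes above 0, and 3 lower without the trend or with only the 6 libraries. The median log2 fold change was −0.06 (−0.03 with quantile normalization, −0.01 with TPM). That of all tested genes was −0.012 (−0.007 with quantile normalization, 0.037 with TPM). Of the 38, 27 were below 0 and 28.9% above 0, where 46% of all genes were above 0. The libraries did not overlap in 14 genes that were lower (17.6% of all genes) and 2 that were higher (14.3%). The cell-cycle genes were lower as well (5 of 12 passed, median −0.13), the CD8 marker sum was lower, the myeloid marker sum was higher (11.1 to 12.4 FPKM against 8.0 to 8.2 FPKM) and the siCreb1 libraries were deeper, and the part of each was not tested. Leaving out siCreb1 plus TVA replicate 1, 2 or 3 gave 1, 2 and 3 members lower, and leaving out siNTC plus TVA replicate 1, 2 or 3 gave 3, 2 and 3.

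The comparison uses the same siNTC plus TVA libraries as the TVA comparison in siNTC cells, so that high values in those 3 libraries enter both and the calls are not independent. Pdia3 and Ssr3 were called in both comparisons, Ssr1 and Sec61g only in the TVA comparison. Pdia3 measured 142, 141 and 140 FPKM in siNTC plus TVA and 134, 129 and 134 FPKM in siCreb1 plus TVA libraries, a log2 fold change of −0.09 (−0.14 to −0.04, adjusted p = 0.0406). Ssr3 measured 50.5, 53.1 and 51.9 FPKM against 48.6, 48.2 and 47.4 FPKM (−0.11, −0.17 to −0.04, adjusted p = 0.0391). Neither pair of groups overlapped, and without TVA the fold changes of the knockdown were 0.00 and 0.03. In fits that left out a library, Pdia3 was called in 3 of 12 (all but those without siNTC replicate 1 or 2 or siCreb1 replicate 1 lost it, adjusted p up to 0.14, −0.07 at the least). Ssr3 was called in 6 of 12 and was lost without siNTC plus TVA replicate 2 or 3, siCreb1 replicate 3 or any 1 siCreb1 plus TVA library (adjusted p up to 0.12, −0.09 at the least). Both calls were also lost when all genes above 0 were tested, with quantile normalization, with TPM, without the trend and with only the 6 libraries.

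Spcs2 (chr7:99837569-99863462), a noncatalytic subunit of the signal peptidase, gave the steadiest call of the 38 genes. It measured 31.2, 31.0 and 31.3 FPKM in siNTC, 32.3, 33.0 and 33.2 FPKM in siNTC plus TVA, 29.1, 30.7 and 28.1 FPKM in siCreb1 and 29.5, 29.3 and 29.6 FPKM in siCreb1 plus TVA libraries. Every siCreb1 library lay below every siNTC library, and every siNTC plus TVA library lay above the siNTC ones. With TVA the log2 fold change of the knockdown was −0.15 (−0.22 to −0.08, adjusted p = 0.0122), and it held in all 12 fits that left out a library, but not after rescaling to TPM. Without TVA it was −0.09 (adjusted p = 0.076).

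P4hb (chr11:120560298-120573253) measured 84.0, 88.8 and 84.1 FPKM in siNTC plus TVA and 78.5, 79.0 and 78.4 FPKM in siCreb1 plus TVA libraries, with no overlap. It fell by 0.12 on the log2 scale (−0.18 to −0.06, adjusted p = 0.0194). The call was lost without siNTC plus TVA replicate 2 or any 1 siCreb1 plus TVA library (adjusted p up to 0.0624, −0.09 at the least), with quantile normalization and with TPM. In cells without TVA it measured 81.3, 81.7 and 77.9 FPKM in siNTC and 79.0, 79.2 and 77.4 FPKM in siCreb1 libraries, which overlapped.

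Manf (chr9:106838312-106891979) measured 18.0, 17.7 and 17.4 FPKM in siNTC plus TVA and 15.7, 16.4 and 15.6 FPKM in siCreb1 plus TVA libraries. The groups did not overlap, and the log2 fold change was −0.14 (−0.23 to −0.06, adjusted p = 0.0367). Without TVA it measured 15.7, 17.3 and 16.9 FPKM in siNTC and 16.4, 16.1 and 16.8 FPKM in siCreb1 libraries, which overlapped (−0.02, adjusted p = 0.79). The call with TVA held in 6 of 12 fits that left out a library and was lost without siCreb1 replicate 1, siCreb1 plus TVA replicate 1 or 3 or any 1 siNTC plus TVA library (adjusted p up to 0.11, −0.13 at the least). It was also lost among all genes above 0, with quantile normalization, with TPM and without the trend. Manf overlaps other expressed genes in the annotation, and whether reads were counted by strand is not given in the sources used here. Expressed genes also overlap Derl2, Spcs1, Ssr2 and Syvn1 on the other strand, and Hsp90b1 and Sec11a on both strands.

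**Figure D4:**
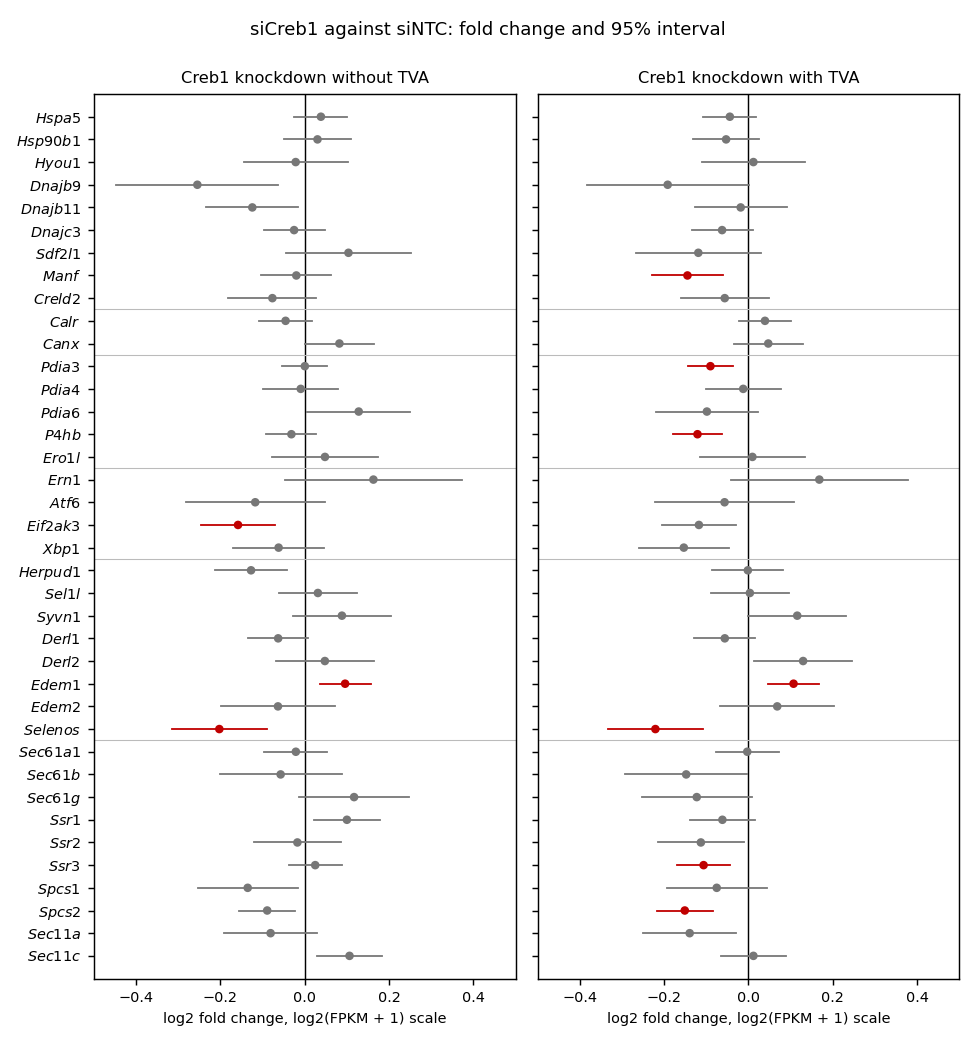
Log2 fold changes (x axis, log2(FPKM + 1) scale) of the 38 genes for siCreb1 against siNTC cells without TVA (left) and with TVA (right), with 95% intervals as lines and red marking an adjusted p under 0.05. Selenos and Edem1 are red on both sides, Eif2ak3 on the left, and Spcs2, P4hb, Manf, Ssr3 and Pdia3 on the right.

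The 3 other genes of the sensor group did not pass in any comparison. Xbp1 measured 10.7, 10.2 and 10.3 FPKM in siNTC, 10.9, 11.4 and 10.7 FPKM in siNTC plus TVA, 9.34, 9.92 and 10.5 FPKM in siCreb1 and 9.43, 9.56 and 10.4 FPKM in siCreb1 plus TVA libraries. The siCreb1 plus TVA libraries lay below the siNTC plus TVA libraries, and the log2 fold change was −0.15 (−0.26 to −0.05, adjusted p = 0.0735), which passed without siCreb1 plus TVA replicate 3 (−0.19, adjusted p = 0.0498). For TVA in siNTC cells Xbp1 had 0.08 (−0.03 to 0.19, adjusted p = 0.4).

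Ern1 measured 1.18, 1.34 and 1.49 FPKM in siNTC, 1.30, 1.40 and 1.17 FPKM in siNTC plus TVA, 1.65, 1.70 and 1.49 FPKM in siCreb1 and 1.90, 1.37 and 1.46 FPKM in siCreb1 plus TVA libraries. Atf6 measured 2.29, 2.12 and 2.46 FPKM in siNTC, 2.42, 2.08 and 2.19 FPKM in siNTC plus TVA, 2.22, 2.03 and 1.85 FPKM in siCreb1 and 2.03, 2.29 and 1.99 FPKM in siCreb1 plus TVA libraries. Within each TVA setting the ranges of both genes overlapped. Under TVA in siNTC cells both had a log2 fold change of −0.03 (Ern1 −0.24 to 0.18, Atf6 −0.19 to 0.14), and with the knockdown Ern1 had 0.16 and 0.17 and Atf6 −0.12 and −0.06. Those of Ern1, the lowest of the 38 genes, were the widest intervals of the list.

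The 10 members with an ERSE or ERSE-II in the promoter can be set beside the 21 with neither, which include Dnajb9, a gene induced through IRE1 and XBP1. Of the 10, 0 passed the test in any of the 5 comparisons (21.4% of all genes passed in at least 1), and with TVA in siNTC cells their median log2 fold change was 0.05 (8 of 10 above 0, 2 higher and 1 lower at an unadjusted p under 0.05). Of all genes, 47.7% were above 0 with TVA in siNTC cells, and 10.5% were higher and 10.5% lower at that p. Limma-voom called Hsp90b1 of the 10 in this comparison and Calr with TVA in siCreb1 cells. Of the 21, 4 rose with TVA in siNTC cells (4.49% of all genes did) and the median was 0.06. In the other comparisons the median of the 10 was 0.03 for TVA in siCreb1 cells, 0.00 for the knockdown without TVA and −0.03 with TVA. The 21 had 0 called and a median of 0.00 for TVA in siCreb1 cells, 1 higher, 2 lower and −0.01 for the knockdown without TVA, and 1 higher, 5 lower and −0.11 with TVA. Of all genes, 0.537% were called for TVA in siCreb1 cells. With the knockdown, 6.52% were higher and 7.21% lower without TVA, and 4.64% higher and 5.51% lower with TVA. The difference between the 10 and the 21 was not tested.

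Other genes of the pathway were read from a list of 99, of which 91 passed the filter. With TVA in siNTC cells 0 rose (7 were higher at an unadjusted p under 0.05, and limma-voom called 1) and 2 fell (2.2%, median log2 fold change 0.01), where 4.49% of all genes rose and 2.88% fell. Those that fell were Dad1, a subunit of the oligosaccharyl transferase (−0.14, adjusted p = 0.0105), and Aup1, a lipid droplet and ER protein that recruits an E2 enzyme for degradation (−0.12, adjusted p = 0.0158). Both calls were lost with only the 6 libraries, and that of Aup1 also with TPM and without siNTC plus TVA replicate 1 or 2 (adjusted p up to 0.0544). With TVA in siCreb1 cells 0 of the 91 passed with limma or limma-voom, and 1 was higher and 2 were lower at an unadjusted p under 0.05 (4.19% and 5.39% of all genes were).

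The target genes of the PERK and ATF4 branch were in this list. Of the 14 genes of the stress arms, 11 passed the filter, and Atf3, Chac1 and Wfs1 did not. In siNTC cells with TVA, 0 of the 11 passed the test with limma or limma-voom, 1 was lower at an unadjusted p under 0.05 and 10 had a fold change below 0 (median −0.07). Of all genes, 7.38% were called with limma, 10.5% were lower at that p and 47.7% had a fold change above 0. Ddit3, which encodes the stress factor CHOP, had −0.12 (adjusted p = 0.38), Atf4 had −0.05 (adjusted p = 0.54) and Trib3, a target of ATF4 and CHOP, had −0.02 (adjusted p = 0.94).

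Knockdown of Creb1 lowered 15 of the 91 without TVA and 13 with TVA and raised 0 in either (16.5% and 14.3%, medians −0.05 and −0.05). Of all genes, 7.21% were lower and 6.52% higher without TVA, and 5.51% lower and 4.64% higher with TVA. At an unadjusted p under 0.05, 0 and 2 were higher (13.6% and 11.6% of all genes were), and limma-voom called 0 higher in both. Without TVA, 5 of the 11 stress arm genes fell (7.21% of all genes did), among them Atf4, which measured 47.3, 49.8 and 51.7 FPKM in siNTC and 41.7, 43.1 and 42.8 FPKM in siCreb1 libraries (−0.22, adjusted p = 0.0044). Ppp1r15a, the phosphatase subunit that reverses the PERK signal, measured 8.90, 8.77 and 8.75 FPKM against 6.84, 6.93 and 5.82 FPKM (−0.38, adjusted p = 0.00517). The groups overlapped in neither gene, and both calls held in all 12 fits that left out a library. Dad1 (−0.14), Aup1 (−0.12) and Srp14, a protein of the signal recognition particle (−0.19), fell as well. Dad1 and Aup1 were also called lower with TVA in siNTC cells. Both comparisons use the same siNTC libraries, so these falls are not independent.

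With TVA, the genes with the smallest adjusted p were the TRAP subunit Ssr4 (−0.23, adjusted p = 0.00539), the vesicle coat gene Sec24d (−0.37, adjusted p = 0.0111), Srp14 (−0.18, adjusted p = 0.0127), Ostc of the oligosaccharyl transferase (−0.20, adjusted p = 0.0136) and Trib3 (−0.41, adjusted p = 0.0143). Ssr4 and Sec24d held in all 12 fits that left out a library. Srp14, Ostc and Trib3 were each lost without 1 library, namely siCreb1 plus TVA replicate 1, 3 and 2 (adjusted p up to 0.0523). The shift of cell-cycle genes, marker sums and depth given for the knockdown comparisons holds here too, and its part was not tested. After rescaling to TPM, which also ended the calls of Srp14 and Ostc with TVA and of Dad1 and Aup1 without it, the counts of lower genes were 4 without and 3 with TVA. Without TVA the count was 8 without siNTC replicate 2, 9 without siCreb1 replicate 1 and 6 without siCreb1 replicate 2 or 3. With TVA it was 7 without siNTC plus TVA replicate 1 or 2, 5 without siCreb1 plus TVA replicate 1 and 6 without siCreb1 plus TVA replicate 2 or 3.

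**Figure D5:**
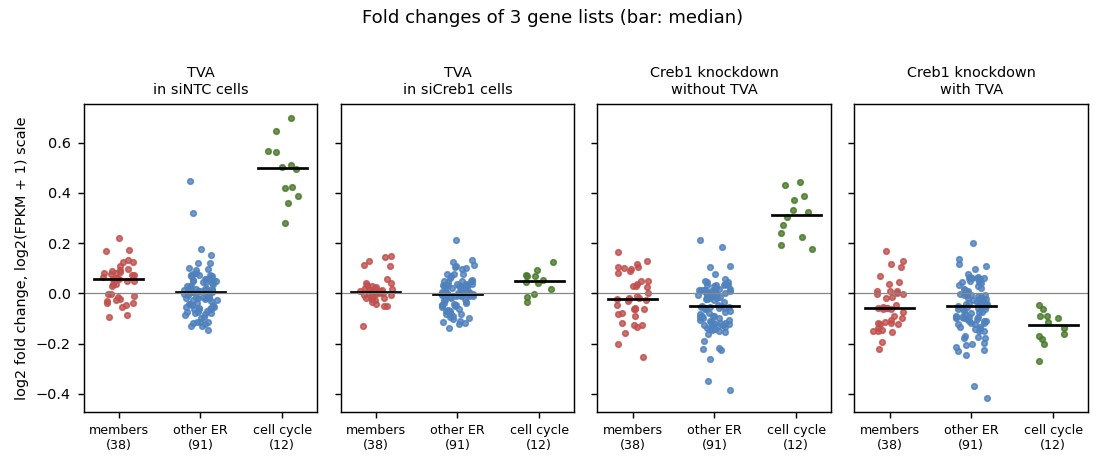
Log2 fold changes (y axis, log2(FPKM + 1) scale) of the 38 members, 91 other ER genes and 12 cell-cycle genes in the 4 comparisons between groups, each point a gene and each bar the median of its list. With TVA in siNTC cells the medians are 0.06, 0.01 and 0.50, and with the knockdown in the presence of TVA they are −0.06, −0.05 and −0.13.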

How the data were processed

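The deposited files give FPKM (fragments scaled by gene length and library size) for each of 12 libraries, made by the authors with the SMARTER mRNA-Seq kit. The submitters' processing notes name GRCm38 and mm10; aligner, counter and annotation are not given in the sources used here. FPKM times gene length gave whole reads for at least 99.995% of values (within 0.1 read) and the depth of each library. Genes with a mean of at least 1 FPKM (11550) entered limma 3.58.1 (R 4.3.3) as log2(FPKM + 1), with 1 coefficient per group and a mean-variance trend, p-values being adjusted by the Benjamini-Hochberg method over all tested genes. Scripts were tested on simulated data. Tables and figures were made with Python 3.11.15, pandas 2.3.3, scipy 1.17.1 and matplotlib 3.10.9. Members and lists were chosen with earlier results of these data known. All members are reported. For a called member the libraries of the comparisons that called it are given, and for the sensor genes and Hspa5 all 12. Those of Calr and Dnajb9 were added after their values were seen. Of the other ER genes, at most 5 called per comparison are named by adjusted p. Lman2 and Tmed2 were named in addition, as were Ddit3, Atf4 and Trib3 for TVA in siNTC cells, where they did not pass. March6 was matched by its identifier. Same-numbered libraries did not deviate together (18 correlations, −0.06 to 0.06), so the fit has no block. The alternatives were a pseudocount of 0.1, other filters, quantile normalization, TPM (computed from the FPKM), no trend, a replicate block, limma-voom on the recovered reads, only the libraries compared, and leaving out each library.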

Additional observations from a re-analysis of the deposited data

Results flagged for a closer look

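The interaction test differed from 0 for 1 of the genes named here, Aup1, a lipid droplet and ER protein of the degradation pathway. Its TVA effect in siCreb1 minus that in siNTC cells was 0.17 on the log2 scale (adjusted p = 0.0366, limma). Aup1 measured 38.5, 37.5 and 36.4 FPKM in siNTC, 34.0, 34.4 and 34.7 FPKM in siNTC plus TVA, 34.1, 34.6 and 34.5 FPKM in siCreb1 and 35.8, 34.9 and 36.3 FPKM in siCreb1 plus TVA libraries. The siNTC libraries thus lay above the other groups. The call held in 2 of the 12 fits that left out a library, those without siNTC replicate 3 or siCreb1 plus TVA replicate 2, and the difference lay between 0.15 and 0.19 in all 12 (adjusted p up to 0.0927). It was lost after rescaling to TPM, without the trend, with the replicate block and with limma-voom.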

How the results depend on the processing

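The 27 named gene results with a test gave 565 values over 21 alternatives: 422 kept their call, 143 lost it and 0 reversed. Members not called had another sign in 154 of 3648 values, all with a reported log2 fold change of at most 0.06. TVA in siNTC cells gave 4 members higher: 2 with TPM, 2 without the trend, 0 with only the libraries compared. Other ER genes higher there were 0 (1 with limma-voom) and lower 2 (1 with TPM, 0 with only the libraries compared). TVA in siCreb1 cells gave 0 members higher (1 among genes of at least 5 FPKM, with quantile normalization and with limma-voom), and the median of 0.00761 was 0.0168 with quantile normalization. Knockdown without TVA gave 1 member higher (0 with all genes, no trend or only the libraries compared, 2 with quantile normalization), 2 lower (1 with all genes or only the libraries compared, 0 with TPM), 15 other ER genes lower (6 with all genes, 4 with TPM or only the libraries compared) and a median of −0.0203 (0.00173 with quantile normalization, 0.0255 with TPM). Knockdown with TVA gave 1 member higher (0 with all genes, no trend or only the libraries compared), 6 lower (2 with all genes, 1 with quantile normalization, 0 with TPM, 3 with no trend or only the libraries compared), 0 other ER genes higher (1 with quantile normalization), 13 lower (6 with all genes, 8 with quantile normalization or the replicate block, 3 with TPM, 7 with only the libraries compared) and a median of −0.0564 (−0.0269 with quantile normalization, −0.00932 with TPM). The interaction gave 1 other ER gene higher (0 with TPM, no trend, the replicate block or limma-voom) and a member median of −0.0317 (−0.0122 with quantile normalization). Fewer libraries or more genes tested leave less power by construction, and the cause of the other changes was not tested. With TPM the median of all tested genes moved as well. For the knockdown it went from −0.00111 to 0.0434 without TVA and from −0.0122 to 0.037 with TVA. With each library left out in turn, members were 0 to 4 higher with TVA in siNTC cells (other ER genes 0 to 2 higher, 1 to 3 lower, member median 0.0429 to 0.0707), 0 to 1 higher with TVA in siCreb1 cells (median −0.0012 to 0.0107), 0 to 1 higher and 0 to 3 lower with the knockdown without TVA (other ER genes 0 to 1 higher, 6 to 13 lower, median −0.0354 to −0.0091), 0 to 1 higher and 1 to 7 lower with TVA (other ER genes 5 to 15 lower, median −0.0696 to −0.0462), and 0 to 1 lower for the interaction (other ER genes 0 to 1 higher, median −0.0417 to −0.0085). The replicate block used numbers that the libraries share without a stated pairing, and only 4 of 12 libraries correlated best with their own number. It lowered the calls over all genes from 852 to 687 for TVA in siNTC cells and from 1172 to 973 for the knockdown with TVA. Among members it ended the calls of Sec61g with TVA in siNTC cells, Eif2ak3 with the knockdown without TVA and Manf and Ssr3 with the knockdown with TVA, and it made those of Herpud1 and Sec61b in the respective knockdown comparisons. The fit of only the libraries compared was not run for the interaction. Members had at least 190 reads in a library, and the median standard error of a member's log2 fold change was 0.04.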

Other observations

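Summed by role, the levels of the genes show the groups at a glance, as a description with no test. The 5 oxidoreductases added to 276 ± 3.54 FPKM (SD, n = 3) in siNTC, 295 ± 1.70 FPKM in siNTC plus TVA, 277 ± 1.02 FPKM in siCreb1 and 278 ± 3.97 FPKM in siCreb1 plus TVA libraries, and most of each sum is Pdia3 and P4hb. The 10 translocon and signal peptidase genes added to 334 ± 10.1, 353 ± 6.77, 329 ± 6.91 and 329 ± 7.35 FPKM in the same order. The sensors with Xbp1 added to 23.2 ± 0.129 and 23.1 ± 0.548 FPKM in the siNTC groups and to 21.7 ± 0.210 and 21.3 ± 0.366 FPKM in the siCreb1 groups. Most of each of these sums is Xbp1 and Eif2ak3. Only Eif2ak3 passed the test with the knockdown, without TVA, and Ern1 had fold changes above 0. The lectin chaperones were highest in siCreb1 plus TVA libraries (196 ± 3.53 FPKM, against 182 ± 1.96 FPKM in siCreb1), which is the Calr difference. The 9 chaperones added to 275 ± 6.22, 290 ± 0.613, 274 ± 2.95 and 277 ± 3.54 FPKM in siNTC, siNTC plus TVA, siCreb1 and siCreb1 plus TVA libraries. The 8 genes of ER-associated degradation added to 211 ± 3.89, 207 ± 2.13, 207 ± 2.45 and 208 ± 0.680 FPKM in that order. The cell-cycle sum is highest in the siNTC plus TVA libraries, as the chaperone, oxidoreductase and translocon sums are, and its part in them was not tested.

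Among the other pathway lists, the 11 oligosaccharyl transferase genes had a median log2 fold change of −0.08 for the knockdown with TVA, with 10 of 11 below 0 and 1 called. The 14 genes of ER to Golgi transport had −0.08 there, with 10 of 14 below 0 and 3 called (Sec24d and the cargo receptors Lman2 and Tmed2, of which the last 2 were named after their values were seen). Of all genes, 10.1% were called in that comparison (5.51% lower), 46% were above 0 and the median was −0.01. With TVA in siNTC cells the 2 lists had medians of 0.06 and 0.02, against −0.01 for all tested genes.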
